A study of Homo sapiens with 8 samples.

Results

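The desmosome genes followed here are 10 genes, chosen by name, that encode the structural proteins of desmosomes: DSG2, DSG3, DSC2, DSC3, JUP, PKP1, PKP2, PKP3, DSP and PERP. Every listed transcript whose RefSeq identifier belongs to one of them was taken. Values were found for 9 of the 10 genes, in 14 of 24812 listed transcripts and among 14528 named genes, and PKP1 was not analysed here. The cells were SQ20B, an established human cell line from a squamous cell carcinoma of the head and neck. Polyadenylated RNA was sequenced from 4 samples in normoxia and 4 samples in hypoxia, which meant 0.5% O2 for 16 h, with no other treatment named. The labels repeat the hypoxic treatment text for the normoxic samples, so the groups follow the source label. For each condition the authors give 1 value per transcript over the replicates, in FPKM, a unit that corrects the number of sequenced fragments for transcript length and library size. Differences and orders of levels below therefore come without a spread between samples, an error or a test, since the authors' own test results were not used. The fragment counts behind the values were not analysed here.

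Desmosomes are spot-like junctions that hold neighbouring epithelial cells together and are abundant in skin, oral mucosa and heart. Their desmogleins (DSG) and desmocollins (DSC) are cadherins that bind across the gap between cells. Inside the cell, plakoglobin (JUP) and the plakophilins (PKP), which are armadillo proteins, join the cadherin tails to desmoplakin (DSP), which anchors keratin filaments. PERP is a membrane protein that the p53 family, p63 included, switches on and that desmosomes of stratified epithelia need.

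DSC2 and DSC3 each have transcripts that differ by a short exon, and its coding part is shown because the transcript values given later follow the choice to include it. The extra exons, 46 bases long in DSC2 and 43 in DSC3, each end the reading frame early and give the shorter b form of the desmocollin, which lacks the end of the tail where plakoglobin binds. The stretch shown runs from the exon's first base through the stop codon, in capitals: 36 bases of DSC2 (chr18:28648275-28648310, minus strand, GRCh37) and 27 of DSC3 (chr18:28574436-28574462, minus strand). The first 21 bases of both are identical. Sequences were read from GRCh37 with the GENCODE annotation.
DSC2 b-form exon, through the stop: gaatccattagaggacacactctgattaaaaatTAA
DSC3 b-form exon, through the stop: gaatccattagaggacacactggtTAA

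Among the 9 desmosome genes, JUP was the one whose hypoxic FPKM was at least 1.5-fold its normoxic value, and none was lower by that factor. PERP and DSP were the most abundant in both conditions, and PKP3 was the least abundant. DSC2, DSP and PERP were higher in hypoxia by less than 1.5-fold, and DSC3, PKP2 and DSG3 were lower by less than that. DSG2 and PKP3 lay within 0.05 of 0 on the log2 scale. A change is the hypoxic minus the normoxic log2(FPKM + 0.1), on FPKM summed over a gene's transcripts, which understates the change of low genes. In all, 12106 genes reached a mean of 0.5 FPKM and were compared, all 9 desmosome genes among them. Of those 12106 genes, 9.95% were higher in hypoxia by 1.5-fold or more and 11.2% were lower, so 1 of 9 and 0 of 9 stood beside those shares. In bulk RNA, fewer cells that express a gene and less of its RNA per cell cannot be told apart.

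**Figure D1:**
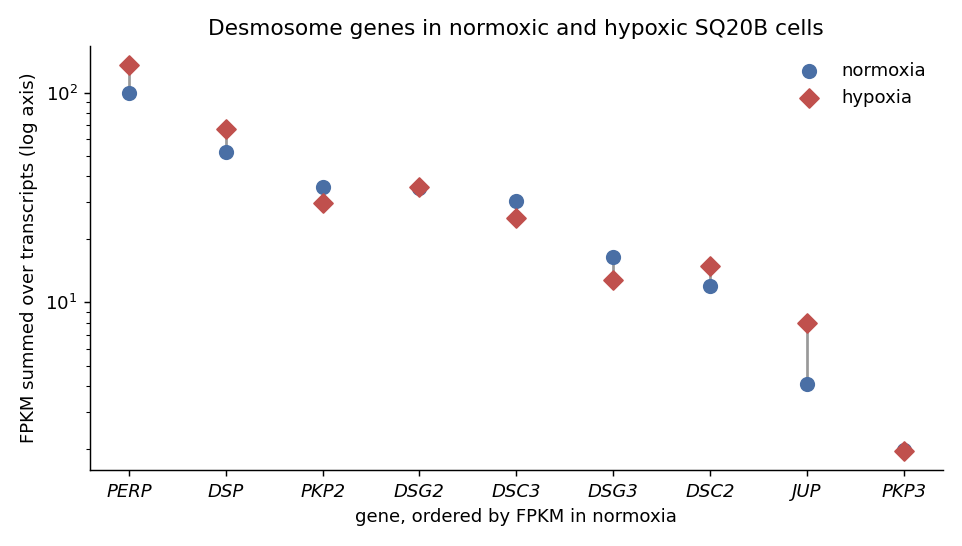
FPKM of the 9 desmosome genes (log axis), summed over transcripts, in normoxia (blue circles) and hypoxia (red diamonds), each point being the authors' value for that condition. JUP has the widest gap on this axis, from 4.08 to 7.99 FPKM, while DSG2 and PKP3 nearly coincide.

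The median change of the 9 genes was 0.01 on the log2 scale, against a median of -0.07 over all 12106 genes, of which 56.4% were below 0. 5 desmosome genes lay above 0 and 4 below, or 6 and 3 once the conditions were scaled to equal FPKM sums. The FPKM values of the whole table summed to 536005 in normoxia and 458431 in hypoxia. Scaling both conditions to the same sum moved the median of all genes up by 0.22, so each change is also given against that median. JUP was 1.02 above the median gene, PERP 0.52, DSP 0.44, DSC2 0.39, DSG2 0.08 and PKP3 0.06, whereas PKP2 lay at -0.19, DSC3 at -0.20 and DSG3 at -0.29. With equal sums these distances differed by less than 0.05. As deposited, 46.9% of the calls over all genes were in the higher direction, and this became 78.9% with equal sums and 58.6% after centring on the median. Of 7 genes listed as known targets of the hypoxic response, 6 had values. All 6 were higher in hypoxia, from 1.02 (VEGFA) to 4.77 (CA9).

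**Figure D2:**
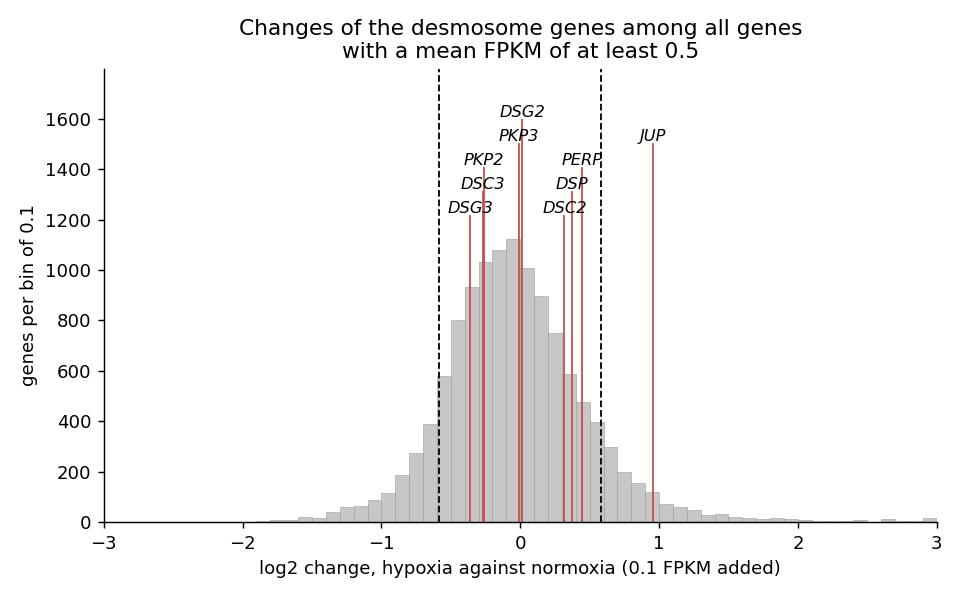
Histogram of log2 changes (hypoxia against normoxia) of 12106 genes in bins of 0.1, with changes beyond 3 gathered in the outermost bins, red lines at the 9 desmosome genes and dashed lines at 1.5-fold. JUP, at 0.95, is beyond the upper dashed line, and the other desmosome genes lie between the dashed lines.

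The 4 desmosomal cadherins lie in 1 cluster on chromosome 18, in the order DSC3, DSC2, DSC1, DSG1, DSG4, DSG3, DSG2, and the 3 genes in the middle of it were not analysed here. DSG2, the desmoglein found in all desmosome-bearing tissues, stood at 35.1 FPKM under normoxia and 35.4 under hypoxia (chr18:29078027-29136874 in hg19). DSG3, the desmoglein of basal stratified epithelium and the antigen of pemphigus vulgaris, stood at 16.4 and 12.8 FPKM, a log2 change of -0.36 (chr18:29027732-29058665). It had the lowest change of the 9 genes, also with equal sums (-0.14). DSG3 thus went from 0.469 to 0.361 per DSG2 in FPKM, and from 31.9% to 26.5% of the desmoglein FPKM. These within-condition ratios do not depend on how the conditions are scaled.

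DSC3, the desmocollin of basal stratified epithelium, stood at 30.5 FPKM under normoxia and 25.3 under hypoxia, a log2 change of -0.27 (chr18:28570052-28622781). DSC2, the widely expressed desmocollin, stood at 12.0 and 15.0 FPKM, a log2 change of 0.32 (chr18:28645942-28682388). The neighbours DSC3 and DSC2 therefore lay on opposite sides of 0. With equal sums their log2 changes were -0.04 for DSC3 and 0.54 for DSC2, so little of the DSC3 decrease remained. DSC2 went from 28.2% to 37.2% of the desmocollin FPKM, and from 0.393 to 0.591 per DSC3. Together the 4 cadherins made 94.0 FPKM under normoxia and 88.5 under hypoxia, a log2 difference of -0.09 that became 0.14 with equal sums. In that total DSG2 went from 37.3% to 40.0% and DSC2 from 12.7% to 16.9%, while DSC3 went from 32.4% to 28.6% and DSG3 from 17.5% to 14.4%. Among these 4, both widely expressed genes thus took a larger share in hypoxia, and both basal stratified genes a smaller one. The FPKM of DSG2 itself was nearly the same in both conditions (35.1 and 35.4). The DSC2 and DSG2 loci overlap antisense genes (DSCAS, DSG2-AS1), and DSC2 also overlaps a noncoding gene on its own strand. The kit keeps the strand, but whether counting used it is not given in the sources used here, so reads of these genes may not be separable.

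**Figure D3:**
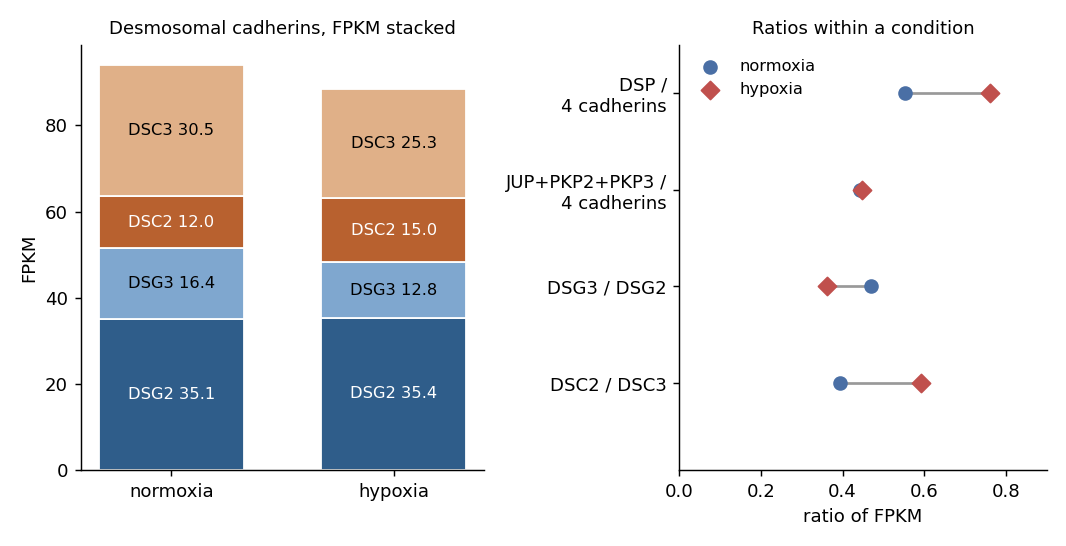
Left, FPKM of DSG2, DSG3, DSC2 and DSC3 stacked for normoxia and hypoxia. Right, ratios of FPKM within each condition (blue circles normoxia, red diamonds hypoxia); DSP per cadherin moves from 0.553 to 0.763 and DSC2 per DSC3 from 0.393 to 0.591, while the height of the left bars goes from 94.0 to 88.5 FPKM (a difference of -0.09 in log2, 0.14 with equal sums).

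JUP, plakoglobin, is an armadillo protein of both desmosomes and adherens junctions and a close relative of β-catenin. It stood at 4.08 FPKM under normoxia and 7.99 under hypoxia, a ratio of 1.96 and a log2 change of 0.95 (chr17:39910859-39942964). Of the 12106 genes, 443 had a higher change, which places JUP at percentile 96.3. Its level lay at percentile 40.8 of all genes by mean FPKM. Set against CTNNB1, the gene of β-catenin, JUP was 2.12% of its FPKM in normoxia and 4.28% in hypoxia. PKP2, the widely expressed plakophilin, stood at 35.6 and 29.7 FPKM, a log2 change of -0.26, or -0.04 with equal sums (chr12:32943680-33049780). PKP3, a plakophilin of most epithelia, stood at 1.97 and 1.96 FPKM (chr11:394217-404908), a change of -0.01 that lay above 0 with equal sums (0.20) and after centring on the median (0.06). JUP went from 9.78% to 20.1% of the armadillo FPKM and PKP2 from 85.5% to 74.9%. The summed armadillo FPKM, 41.7 and 39.7, stood in nearly the same ratio to the cadherins in both conditions, 0.443 and 0.448.

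DSP, desmoplakin, stood at 52.0 FPKM under normoxia and 67.5 under hypoxia, a log2 change of 0.38 (chr6:7541870-7586946). Relative to the cadherins it went from 0.553 to 0.763. PERP stood at 99.3 and 135 FPKM, a log2 change of 0.45 (chr6:138409642-138428660). PERP supplied 34.6% of the FPKM of the 9 genes in normoxia and 40.9% in hypoxia. TP63, whose protein p63 drives PERP in stratified epithelia, stood at 42.8 and 44.6 FPKM, a change of 0.06. Whether p63 bears on the PERP values was not tested. With equal sums DSP (0.60) and PERP (0.67) also passed 1.5-fold, beside 18.6% of all genes. DSP overlaps an antisense gene, DSP-AS1, and PKP2 a noncoding gene on its own strand, with the same limit as above.

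5 of the desmosome genes have 2 listed transcripts and the other 4 have 1. How the authors' software shares reads between transcripts with common exons is an estimate, so transcript values carry an error beyond that of the gene, which was not measured here. 13 of the 14 transcripts reached a mean of 0.5 FPKM. 3 of these were higher by 1.5-fold or more, both JUP transcripts and the short DSP transcript, and none was lower. Over all 18190 transcripts past the same limit, 10.5% were higher and 14.3% were lower. With equal sums 5 were higher, the DSC2 a form and PERP in addition, beside 19% of all transcripts.

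The b form of DSC2 (NM_004949), which holds the exon shown above, stood at 3.05 FPKM under normoxia and 3.02 under hypoxia. The a form (NM_024422), with the full tail, stood at 8.93 and 11.9 FPKM, a log2 change of 0.42. With equal sums the b form was higher by 0.21 and the a form by 0.64 on the log2 scale. The share of the a form, which scaling does not touch, went from 74.5% to 79.8%. For DSC3 the a form (NM_001941) stood at 18.001 and 15.514 FPKM and the b form (NM_024423) at 12.5 and 9.79 FPKM. Their log2 changes were -0.21 and -0.35, which became 0.01 and -0.13 with equal sums. The a form of DSC3 held 59.0% of the gene in normoxia and 61.3% in hypoxia. The b form therefore made up a larger part of DSC3 than of DSC2 in both conditions.

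The long DSP transcript (NM_004415, desmoplakin I) stood at 42.7 FPKM under normoxia and 52.1 under hypoxia, a log2 change of 0.29. The short one (NM_001008844, desmoplakin II), which lacks much of the central rod, stood at 9.28 and 15.4 FPKM, a ratio of 1.66 and a log2 change of 0.72. Its share of DSP went from 17.8% to 22.8%. Of the JUP transcripts, which encode the same protein, NM_021991 stood at 2.90 and 5.91 FPKM, a ratio of 2.04. NM_002230 stood at 1.17 and 2.07 FPKM, a ratio of 1.76. Both JUP transcripts were thus higher, and the share of NM_021991 was 71.2% in normoxia and 74.1% in hypoxia. The 2a form of PKP2 (NM_001005242) held 99.1% and 99.2% of the gene. The 2b form (NM_004572) stood at 0.329 and 0.238 FPKM, below the limit of 0.5.

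**Figure D4:**
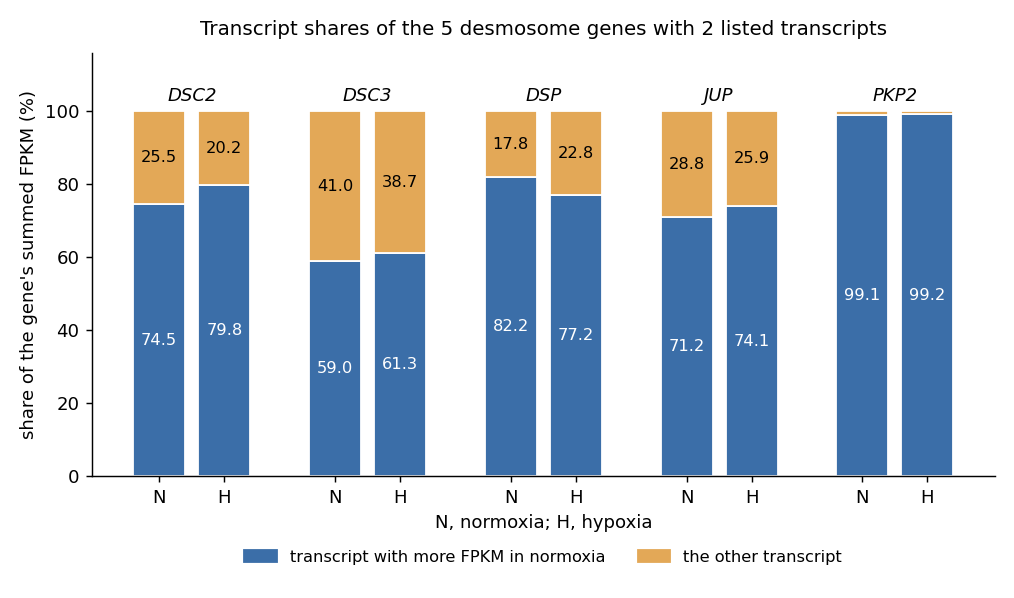
Share of each gene's summed FPKM (%) held by its transcripts in normoxia (N) and hypoxia (H), with the transcript that had more FPKM in normoxia in blue and the other in orange. The a form of DSC2 goes from 74.5% to 79.8%, the short form of DSP from 17.8% to 22.8%, and PKP2 is nearly all 2a form.

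Hypoxia-inducible factors bind a core of ACGTG or GCGTG, so this core was searched on both strands in the 250 bases before each annotated start of the desmosome genes, taken from RefSeq (GRCh38.p14). 10 windows of 8 genes were found, PKP1 among them, while PKP2 and PKP3 had no window and were not searched. The core occurred in 3 windows of 2 genes, JUP and DSC2, beside 43.2% of all 35116 windows of that length. Those 3 windows are shown because they hold the core. The log2 change was 0.95 for JUP and 0.32 for DSC2. The other DSC2 window held no core, and neither did those of DSP (0.38) and PERP (0.45). Whether the core bears on the changes was not tested. The JUP windows lie at chr17:41786712-41786961 and chr17:41785977-41786226, and the DSC2 window at chr18:31101261-31101510, all on the minus strand. Capitals mark the core in either orientation, and each run ends at the base before the start.
JUP window 1: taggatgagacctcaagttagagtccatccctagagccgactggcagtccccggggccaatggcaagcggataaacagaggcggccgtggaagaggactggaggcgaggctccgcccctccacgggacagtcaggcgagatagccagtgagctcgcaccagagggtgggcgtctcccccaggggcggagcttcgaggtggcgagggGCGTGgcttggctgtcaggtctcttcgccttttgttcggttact
JUP window 2: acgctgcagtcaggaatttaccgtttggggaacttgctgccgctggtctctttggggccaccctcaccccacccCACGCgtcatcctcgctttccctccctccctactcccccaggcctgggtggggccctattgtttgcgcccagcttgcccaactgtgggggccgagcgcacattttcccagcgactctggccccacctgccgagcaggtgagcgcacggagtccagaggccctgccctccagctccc
DSC2 window 2: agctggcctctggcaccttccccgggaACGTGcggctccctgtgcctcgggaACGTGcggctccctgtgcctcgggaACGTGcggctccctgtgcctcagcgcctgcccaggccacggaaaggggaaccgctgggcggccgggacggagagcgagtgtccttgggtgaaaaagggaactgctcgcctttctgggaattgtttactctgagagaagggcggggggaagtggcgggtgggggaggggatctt

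The core begins at -44 in the first JUP window, at -176 in the second, and at -223, -198 and -173 in the DSC2 window, counted from the start. In DSC2 the cores are 25 bases apart and fall in a tandem repeat. Which start the listed JUP and DSC2 transcripts use is not given by the table. The E-box CACCTG, the sequence that the repressors SNAI1 and SNAI2 bind, was searched on both strands in the same windows and occurred in 4 windows of 4 genes, DSC2, DSG2, DSP and JUP, beside 17.5% of all windows. A match of letters describes the window and does not show that a factor binds there.

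Other junction genes were listed beside the desmosome genes. Of 7 further desmosomal genes 4 had values and 3 were above the limit. PPL, periplakin, which like desmoplakin links to keratins, stood at 7.19 FPKM under normoxia and 11.5 under hypoxia, a log2 change of 0.67. EVPL, envoplakin, was at 0.508 and 0.724 FPKM (0.44), and PKP4, an armadillo protein also found at adherens junctions, at 24.2 and 26.3 FPKM (0.12).

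The adherens junction list also takes in related genes. Of its 15 genes compared, 6 were higher by 1.5-fold or more and none lower, beside 9.95% and 11.2% of all genes. The median change of the 15 was 0.45. With equal sums 9 were higher, beside 18.6% of all genes, and the median was 0.67. AFDN, afadin, which ties nectins to actin, stood at 18.4 FPKM under normoxia and 35.3 under hypoxia (0.93), and NECTIN4 at 1.77 and 3.32 FPKM (0.87). The highest change was that of PDZD2, at 1.06. At the other end stood CTNNBIP1 (-0.14), CTNNA1 (-0.09) and CTNNB1 (-0.04), which lay above 0 with equal sums (0.08, 0.13 and 0.18). The classical cadherin CDH1 stood at 61.1 and 82.6 FPKM (0.43), so the 4 desmosomal cadherins went from 1.54 to 1.07 per CDH1. Of 8 hemidesmosome genes compared, which fix basal cells to the basement membrane, 4 were higher by 1.5-fold or more and none lower, beside the same shares of all genes, with a median of 0.57. With equal sums 5 were higher and the median was 0.79. COL17A1, collagen XVII, stood at 32.3 and 73.9 FPKM (1.19), LAMB3, a laminin-332 chain, at 6.41 and 14.3 FPKM (1.15), and the integrin ITGB4 at 2.06 and 3.79 FPKM (0.85). ITGA6 (-0.09) and CD151 (-0.01) had the lowest changes of these 8 genes, and with equal sums they lay above 0 (0.14 and 0.22). PLEC also had values, 0.306 and 0.121 FPKM (-0.88), but lay below the limit of 0.5 and was not compared.

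Of 9 keratin genes compared, 1 was higher by 1.5-fold or more and 2 were lower, beside 9.95% and 11.2% of all genes, with a median of -0.18 that became 0.04 with equal sums. KRT15, a basal keratin, stood at 5.80 FPKM under normoxia and 10.2 under hypoxia (0.81). KRT18, a keratin of simple epithelia, stood at 829 and 489 FPKM (-0.76), and KRT6A, a keratin of activated epidermis, at 5.10 and 3.26 FPKM (-0.63). With equal sums KRT18 and KRT6A stayed below 0 but were lower by less than 1.5-fold. KRT19 (0.60) then joined KRT15 in being higher by 1.5-fold or more. The counts with equal sums were 2 higher and 0 lower, beside 18.6% and 4.99% of all genes. The medians of these lists stand beside 0.01 for the desmosome genes and -0.07 for all genes, and no difference between lists was tested.

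**Figure D5:**
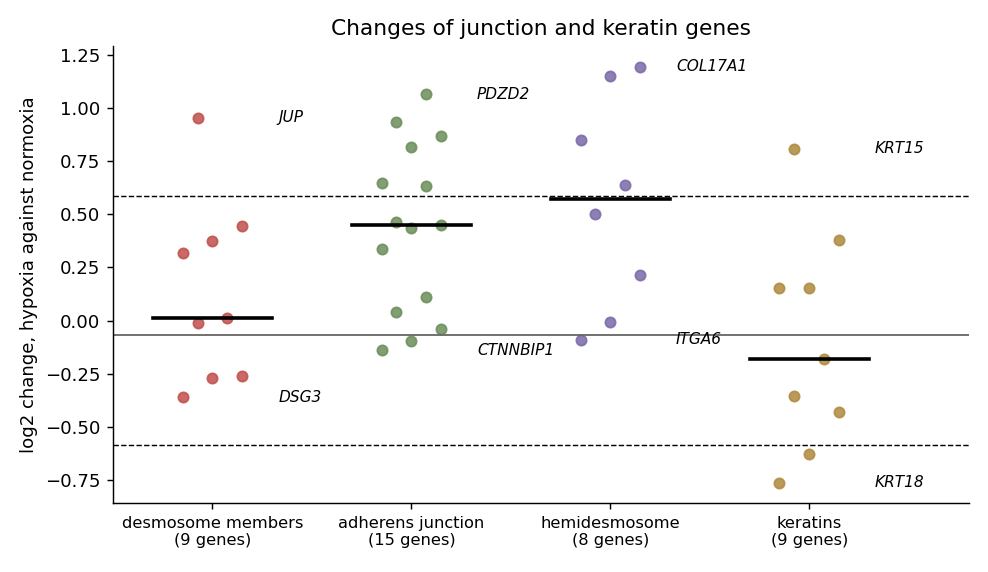
Log2 change (hypoxia against normoxia) of each gene on the desmosome, adherens junction, hemidesmosome and keratin lists that reached a mean of 0.5 FPKM. Black bars mark list medians, a grey line the median of all genes (-0.07) and dashed lines 1.5-fold. List medians are 0.01, 0.45, 0.57 and -0.18 in that order, and the keratin median turns to 0.04 with equal sums.

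Squamous markers were present, 6 of 7 having values, while KRT14 was not analysed here. The 6 summed to 574 FPKM in normoxia and 643 in hypoxia, of which KRT5 made 398 and 442. Of these 6, 4 lay above 0 and 2 below, KRT6A at -0.63 and SFN at -0.21, the latter at 0.02 with equal sums. Simple epithelial markers (KRT8, KRT18, EPCAM) summed to 1426 and 968 FPKM, and their part in the desmosome values was not tested. Of 16 markers of fibroblasts, endothelium, leukocytes and heart muscle, 3 had values: COL3A1 at 0.0489 and 0.107 FPKM, CDH5 at 4.78 and 2.83, and CD68 at 2.36 and 2.86. The other 13 were not analysed here.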

How the data were processed

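Polyadenylated RNA of SQ20B cells was sequenced from strand-specific libraries of 4 normoxic and 4 hypoxic samples, each group labelled as biological replicates. Per the submitters' processing notes, reads were processed with STAR 2.3.0.1 and Cufflinks 2.1.1 on hg19, and the study's methods name the Cufflinks suite for differential expression, run at default settings with RefSeq annotation. The deposited FPKM values are the authors', 1 per transcript and condition over the 4 replicates. The same table holds the authors' own fold changes, test statistics, p-values and q-values, which were not used. Neither intervals nor detection floors were computed, since fragment counts were not analysed here.

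Gene symbols were looked up by RefSeq identifier in the GRCh38.p14 annotation, which matched 24293 of 24812 transcripts (97.9%). FPKM of all transcripts of a gene was summed, 0.1 was added before log2, genes whose mean lay under 0.5 FPKM were dropped, and 1.5-fold marked a call. From 1 value a condition no test could be computed here, and limma, planned for values of single replicates, was not run. Loci are those of the table, with starts counted from 1, and that of DSG2 runs past the gene as GENCODE annotates it.

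All 10 desmosome genes were named by rule, and of other lists at most the 3 highest and 3 lowest changes. CDH1 and CTNNB1 (as denominators), TP63, the marker genes and genes below the limit (PLEC, ZEB1, ZEB2) are named besides these. The genes and lists were chosen with earlier results of these data known. Pseudocounts, filters, scalings, transcript choices and fold thresholds were varied. Python 3.11.15, numpy 2.4.6, pandas 2.3.3 and matplotlib 3.10.9 were used.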

Additional observations from a re-analysis of the deposited data

How the results depend on the processing

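With 1 value a condition, leaving out single replicates could not be run. No paired analysis was possible because the table holds 1 value a condition. The count of desmosome genes higher by the chosen fold, 1 as reported, was 3 with equal FPKM sums (JUP 1.18, PERP 0.67, DSP 0.60), 4 at 1.2-fold and 0 at 2-fold. The shares of all genes higher were 9.95% as reported, 18.6% with equal sums, 23.8% at 1.2-fold and 3.21% at 2-fold. The count lower, 0 as reported, was 2 at 1.2-fold (DSC3, DSG3), beside 11.2% and 33% of all genes. The count of their transcripts higher by 1.5-fold, 3 as reported, was 5 with equal sums, an alternative chosen after seeing the data. The shares of all transcripts were 10.5% and 19%. The median of the desmosome genes was 0.24 with equal sums. The change of PKP3 turned to 0.0588 after median centring and 0.20 with equal sums. Of 72 values recomputed for single genes, 61 moved by at most 0.1 on the log2 scale, 9 moved further without changing sign, and PKP3 supplied the other 2. Many of those 61 could not have moved further, so this tally does not measure how stable the values are. The filters leave a gene's value as it is, and all listed transcripts of these genes are coding. Median centring shifts every gene by the same 0.07. Equal sums multiply hypoxic FPKM by 1.17, a shift of 0.23 on the log2 scale, and so supplied 8 of those 9 moves. The ninth was JUP, at 0.82 with a pseudocount of 1. Over all genes, 1204 were higher and 1361 lower as reported, 2278 and 611 with equal sums, 719 and 1031 with a pseudocount of 1, 2881 and 3990 at 1.2-fold, and 388 and 317 at 2-fold.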

Other observations

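Of 12 genes known to act on desmosomes that were compared, 3 were higher in hypoxia by 1.5-fold or more and 1 was lower, beside 9.95% and 11.2% of all genes, with a median of 0.13. With equal sums 4 were higher, beside 18.6% of all genes, and the median was 0.35. GRHL1, a grainyhead factor that drives desmosomal cadherin genes in epidermis, stood at 5.48 FPKM under normoxia and 10.6 under hypoxia, a log2 change of 0.95. Its relative GRHL2, an activator of epithelial junction genes, stood at 31.7 and 21.4 FPKM, a log2 change of -0.57. The grainyhead genes therefore lay on opposite sides of 0, also with equal sums (1.17 and -0.34). PRKCA, protein kinase C alpha, which loosens desmosomal adhesion, stood at 0.679 and 1.23 FPKM (0.77), and OVOL1, an epidermal differentiation factor, at 1.46 and 2.48 FPKM (0.72). PRMT1, an arginine methyltransferase, stood at 63.8 and 28.0 FPKM, a log2 change of -1.19. It had the lowest change of these 12 genes.

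Of 6 repressors that switch epithelial genes off in epithelial-mesenchymal transition, 5 had values and 3 were compared. None of the 3 passed 1.5-fold in either direction, beside 9.95% of all genes higher and 11.2% lower. SNAI2 stood at 31.2 FPKM under normoxia and 28.9 under hypoxia, a log2 change of -0.11 that became 0.12 with equal sums. TWIST1 stood at 5.71 and 5.61 FPKM, and TWIST2 at 1.29 and 0.958 FPKM. ZEB1 and ZEB2 had mean FPKM below 0.5.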
